A study of Mus musculus with 4 samples.

Results

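The 7 globin genes of the mouse that encode the chains of embryonic and adult haemoglobin were followed across 4 RNA-seq libraries. They are Hba-x, Hba-a1 and Hba-a2 on the alpha side and Hbb-y, Hbb-bh1, Hbb-bs and Hbb-bt on the beta side, chosen by gene symbol, and all 7 were found among the 53715 genes of the deposited table. There were 2 libraries labelled Rif1_KO (Rif1-knock out) and 2 labelled WT (wild type), each made from 1000 cells. By their labels these were primordial germ cells from C57BL/6 embryos, taken at E12.5. The cells were taken with magnetic beads (MACS) and their full-length cDNA was made by a modified Smart-seq2 protocol and cut with Tn5 transposase, for all groups alike. The part of Rif1 that was deleted, whether the deletion was limited to a cell type, the number of embryos behind a library and the bead marker are not given in the sources used here. Nothing says that replicates came from separate embryos, so a spread between them may be technical.

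Haemoglobin carries oxygen in red blood cells and joins a pair of alpha-like chains to a pair of beta-like chains. In the mouse the first red cells, called primitive, arise in the yolk sac and use the embryonic genes Hba-x (zeta chain), Hbb-y (epsilon-y chain) and Hbb-bh1 (beta-h1 chain), beside the adult alpha genes. The definitive red cells of the fetal liver, which enter the blood around the middle of gestation, use the adult genes Hba-a1, Hba-a2, Hbb-bs and Hbb-bt.

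The libraries held 12071903 and 14421298 counts under the label Rif1_KO and 12768932 and 11724630 under the label WT (replicate 1, then replicate 2, here and in every pair of values). Rif1 itself, which encodes a chromatin protein of replication timing and break repair, was at 86.2 and 63.9 CPM in the libraries labelled Rif1_KO and at 43.7 and 4.73 CPM in those labelled WT. CPM are counts per 1000000 of the library size after TMM scaling, a correction for differences in composition between libraries. The transcript level of Rif1 thus goes against the labels, though 21.0% of all tested genes were higher in both libraries labelled Rif1_KO too. Libraries are called by their label throughout. Whether the labels were exchanged or the deletion left a transcript was not tested, and an exchange would turn round every direction given between the labels. The cell type label was read against marker genes. The 10 germ cell markers summed to 35.5 and 34.3 CPM under the label Rif1_KO and to 36.5 and 440 CPM under the label WT. None was at 0 in every library, but Pou5f1, Nanos3 and Mael had too few counts to be tested. Pou5f1 had 4 and 11 counts under the label Rif1_KO and 13 and 9 under the label WT. Nanos3 had 8 and 8, then 8 and 21, and Mael had 6 and 0, then 1 and 2. In every library the germ cell sum was below that of 9 supporting and stromal markers, given further on. The high sum of WT replicate 2 came mostly from Dppa3 (165 CPM), Dazl (196 CPM) and Ddx4 (59.2 CPM), while Prdm1 was highest in Rif1_KO replicate 2 and Kit in Rif1_KO replicate 1. Of 12 erythroid markers that are not globins, 9 were lower in both libraries labelled Rif1_KO than in both labelled WT, where 18.4% of all tested genes were. Their sum was 59.2 and 41.0 CPM under the label Rif1_KO and 540 and 999 CPM under the label WT. Fewer red cells and less RNA per red cell cannot be told apart in such bulk samples.

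Both globin families lie in clusters, in which the embryonic gene comes first in the direction of transcription. On mm10 the alpha genes run along the plus strand of chromosome 11, with Hba-x at chr11:32276400-32278116, Hba-a1 at chr11:32283511-32284465 and Hba-a2 at chr11:32296489-32297298. The beta genes run along the minus strand of chromosome 7, with Hbb-y at chr7:103851749-103853216, Hbb-bh1 at chr7:103841637-103843164, Hbb-bs at chr7:103826534-103828096 and Hbb-bt at chr7:103812524-103813996. RefSeq promoter sequences (GRCm38.p6) were at hand for 6 of the 7 genes. The 150 bases before the RefSeq start of transcription are shown for 5 of them. The reason is that the genes split by stage in the library labelled Rif1_KO replicate 2, as given further on. Capitals mark 4 short motifs, searched on both strands: CCAAT, the box bound by NF-Y, CACCC, the box bound by Klf1 in adult beta-globin promoters, TATAA, the TATA box, and GATAA, a form of the site bound by Gata1. Hba-x is from chr11:32276450-32276599 and Hba-a1 from chr11:32283522-32283671, both on the plus strand. Hbb-y is from chr7:103853208-103853357, Hbb-bs from chr7:103827929-103828078 and Hbb-bt from chr7:103813924-103814073, all on the minus strand. The windows of Hba-x, Hba-a1 and Hbb-bs lie inside the gene models used for the counts, which begin before the RefSeq start.
Hba-x: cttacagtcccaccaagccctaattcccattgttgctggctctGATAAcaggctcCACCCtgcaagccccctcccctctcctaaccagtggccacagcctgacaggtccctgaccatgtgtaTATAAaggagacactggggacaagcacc
Hba-a1: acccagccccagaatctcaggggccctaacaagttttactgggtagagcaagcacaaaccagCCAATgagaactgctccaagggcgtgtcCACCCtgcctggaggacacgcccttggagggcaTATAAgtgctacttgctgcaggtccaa
Hbb-y: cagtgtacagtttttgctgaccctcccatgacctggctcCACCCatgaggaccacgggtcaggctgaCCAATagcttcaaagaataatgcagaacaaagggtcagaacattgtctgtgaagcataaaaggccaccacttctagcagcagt
Hbb-bs: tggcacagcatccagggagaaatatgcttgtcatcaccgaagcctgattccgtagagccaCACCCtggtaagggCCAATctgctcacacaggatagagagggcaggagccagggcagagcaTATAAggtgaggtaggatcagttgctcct
Hbb-bt: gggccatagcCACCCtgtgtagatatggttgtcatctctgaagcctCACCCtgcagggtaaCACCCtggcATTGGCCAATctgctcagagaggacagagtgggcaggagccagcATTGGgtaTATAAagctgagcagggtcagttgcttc
Hba-a2 is not shown because its promoter repeats that of Hba-a1: over the 300 bases around each start, a run of 297 bases is identical. No other pair of these promoters shared an identical run of more than 14 bases, the run of Hbb-bs with Hbb-bt. CACCC was found in 6 of 6 promoters, against 37.4% of 32851 RefSeq promoter windows of the same length. CCAAT was found in 5 of 6, missing from Hba-x, against 24.5% of all windows. TATAA was found in 5 of 6, missing from Hbb-y, against 14.2% of all windows, and GATAA in Hba-x alone, against 13.3%. In Hbb-bt the CCAAT of both strands sit side by side in 1 capital run. The matches are a description of these letters and not of binding.

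The adult alpha genes were the most alike of all pairs and set the common pattern, far lower in both libraries labelled Rif1_KO and close within each label. Hba-a1, which encodes the adult alpha chain, had 3871.5 and 2598 CPM under the label Rif1_KO and 54994 and 52153 CPM under the label WT. Hba-a2, its duplicate with an almost identical mRNA, had 984 and 690 CPM under the label Rif1_KO and 15389 and 12080 CPM under the label WT. The groups do not overlap for either gene, and the libraries within a label lie within 1.49-fold of each other. Hba-a2 took 20.3% and 21.0% of the adult alpha counts under the label Rif1_KO and 21.9% and 18.8% under the label WT, so the split of reads between the duplicates hardly moved while their sum did. That split is uncertain as a ratio of mRNAs: of the 100-base windows of the mRNA, 56.5% of those of Hba-a1 and 74.5% of those of Hba-a2 occur in the other gene as well, and the authors' count took alignments only from a mapping quality of 30.

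Hba-x, the embryonic alpha-like gene in front of them, split the libraries labelled Rif1_KO. It had 2975.5 and 29.9 CPM there and 30065 and 22917 CPM under the label WT. Both libraries labelled Rif1_KO lie below both labelled WT, but replicate 1 was 99.6-fold above replicate 2, while the adult alpha genes differed by no more than 1.49-fold between the same libraries. The counts behind these values were 39490 and 564 under the label Rif1_KO, so the low one is well above the floor of 3 counts. None of the 100-base windows of Hba-x occurs in another globin mRNA.

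The embryonic beta-like genes did as Hba-x did. Hbb-y had 1430 and 49.4 CPM under the label Rif1_KO and 32322 and 16786 CPM under the label WT. Hbb-bh1, which in primitive red cells is used early and then gives way to Hbb-y, had 104 and 1.96 CPM under the label Rif1_KO and 1436 and 1005 CPM under the label WT. Replicate 1 exceeded replicate 2 under the label Rif1_KO 28.9-fold for Hbb-y and 52.9-fold for Hbb-bh1, and the groups do not overlap. Between the replicates labelled WT the same ratio was 1.93 for Hbb-y and 1.43 for Hbb-bh1. Hbb-bh1 took 6.75% and 3.81% of the embryonic beta counts under the label Rif1_KO and 4.25% and 5.65% under the label WT. Averaged, this was 5.28% ± 2.08 under the label Rif1_KO and 4.95% ± 0.988 under the label WT (SD, n = 2 each), closer than the replicates of either label, so Hbb-y was the main embryonic beta gene in all 4 libraries.

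The adult beta genes were lower under the label Rif1_KO as well, and their replicates ran the opposite way to the embryonic genes. Hbb-bs, the more abundant of the pair, had 358 and 648 CPM under the label Rif1_KO and 2606 and 5024 CPM under the label WT. Hbb-bt had 143 and 226 CPM under the label Rif1_KO and 1491.5 and 2447 CPM under the label WT. The groups do not overlap, and in both labels replicate 2 was the higher one, by 1.57-fold to 1.93-fold. Hbb-bt took 28.6% and 25.8% of the adult beta counts under the label Rif1_KO and 36.4% and 32.8% under the label WT, again without overlap. Of the 100-base windows, 62.6% of those of Hbb-bs and 54.8% of those of Hbb-bt are shared within the pair.

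**Figure D1:**
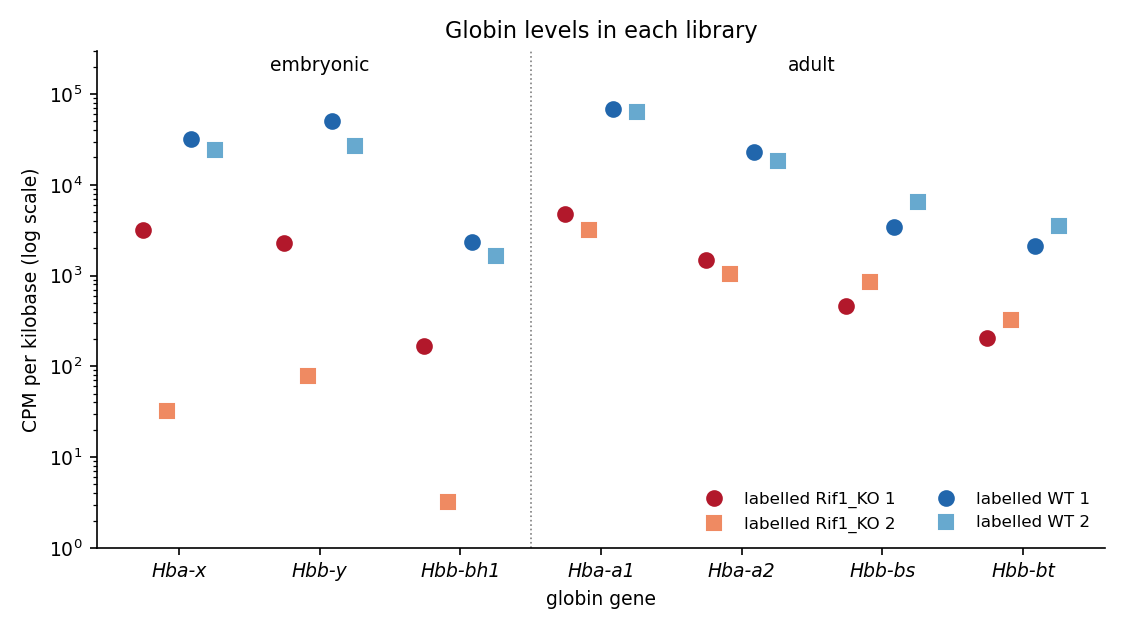
Level of each globin gene in CPM per kilobase of its gene model, on a log axis, with 1 point per library. For the 3 embryonic genes the library labelled Rif1_KO replicate 2 lies far below replicate 1, while for the 4 adult genes these libraries lie together, below both libraries labelled WT.

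Levels of different genes were compared per kilobase of gene model. Under the label WT Hba-a1 stood highest with 67727 and 64228 CPM per kilobase, followed by Hbb-y with 51061 and 26518, Hba-x with 32052 and 24432 and Hba-a2 with 23072 and 18111. The place of Hba-a2 below Hbb-y and Hba-x is uncertain, because a scale per kilobase takes no account of shared windows. Of the 100-base windows of Hba-a2, 74.5% occur in Hba-a1 as well, against 0% shared for Hbb-y and for Hba-x. In the order under the label WT, the values of Hbb-y and Hba-x overlap between libraries, but Hbb-y was the higher in both libraries. At lower levels came Hbb-bs with 3393 and 6541, Hbb-bt with 2122 and 3480 and Hbb-bh1 with 2342.5 and 1640 CPM per kilobase. Of these, each overlaps with the next. Hbb-bs was above Hbb-bt in both libraries labelled WT, while Hbb-bt and Hbb-bh1 changed places between them. The library labelled Rif1_KO replicate 1 kept nearly this order, with Hba-a1 at 4768, Hba-x at 3172, Hbb-y at 2260 and Hba-a2 at 1475 CPM per kilobase. In the library labelled Rif1_KO replicate 2 the 4 adult genes came first, from Hba-a1 at 3199 to Hbb-bt at 321 CPM per kilobase. The embryonic genes closed the order there, with Hbb-y at 78.1, Hba-x at 31.8 and Hbb-bh1 at 3.20 CPM per kilobase.

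**Figure D2:**
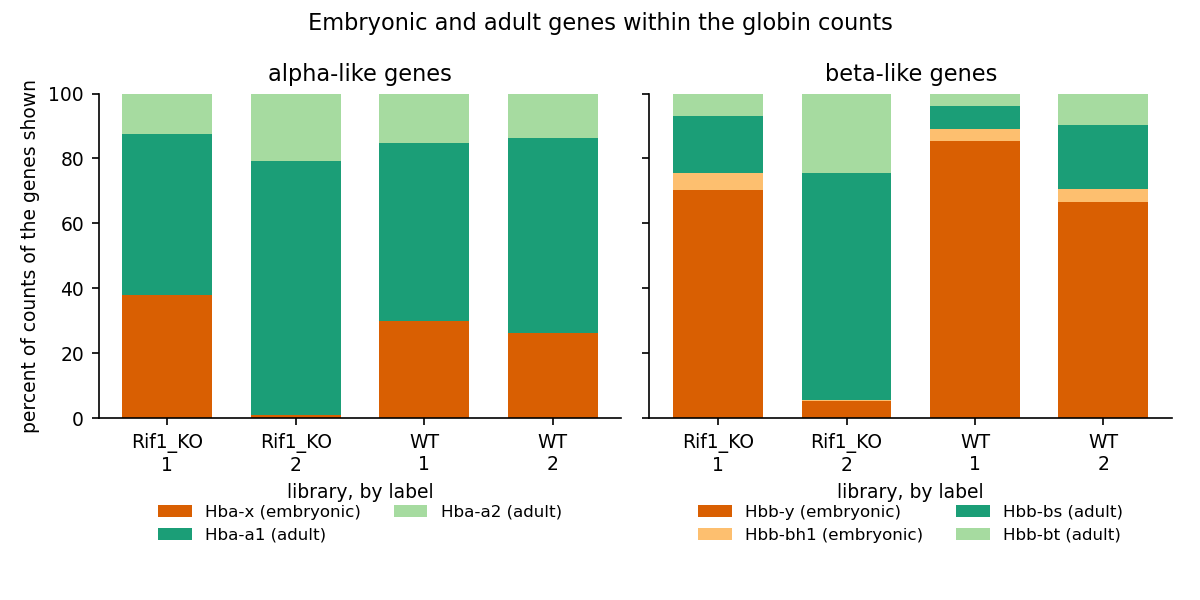
Share of each gene in the counts of the alpha-like genes (left) and the beta-like genes (right), in percent, with 1 bar per library. Embryonic genes, in orange tones, hold 0.901% of the alpha and 5.55% of the beta counts in the library labelled Rif1_KO replicate 2, and at least 26.3% and 70.4% in each of the other libraries.

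The embryonic share within a library does not depend on the scaling between libraries. Hba-x held 38.0% (95% Clopper-Pearson interval 37.7 to 38.3) and 0.901% (0.828 to 0.978) of the alpha counts under the label Rif1_KO, and 29.9% (29.845 to 30.017) and 26.3% (26.2 to 26.4) under the label WT. Replicate 1 labelled Rif1_KO therefore had the highest and replicate 2 the lowest value of the 4 libraries. Hbb-y and Hbb-bh1 together held 75.4% (74.9 to 75.9) and 5.55% (5.22 to 5.90) of the beta counts under the label Rif1_KO, and 89.2% (89.1 to 89.3) and 70.4% (70.2 to 70.6) under the label WT. Here replicate 1 labelled Rif1_KO lay between the libraries labelled WT. These intervals take each count as independent and leave out the spread between libraries. Without molecular identifiers, amplified copies of 1 molecule are counted again, so the intervals may be too narrow even for counting. The group means were 19.4% ± 26.2 under the label Rif1_KO and 28.1% ± 2.57 under the label WT for alpha (SD, n = 2 each). For beta they were 40.5% ± 49.4 under the label Rif1_KO and 79.8% ± 13.3 under the label WT. Both differences between the labels are smaller than the spread within the label Rif1_KO. The smallest two-sided p of an exact permutation test with 2 libraries per label is 0.333, and none was run.

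The embryonic share depends on how counts are set against gene length. Per kilobase of gene model it was 33.7% and 0.747% under the label Rif1_KO and 26.1% and 22.9% under the label WT for alpha. For beta it was 78.4% and 6.52% under the label Rif1_KO and 90.6% and 73.8% under the label WT. Per 100-base window that no other globin mRNA shares, which gives the adult genes more weight, the share for alpha was 15.4% and 0.267% under the label Rif1_KO and 11.1% and 9.70% under the label WT. For beta it was then 55.25% and 2.30% under the label Rif1_KO and 77.3% and 49.3% under the label WT. The order of the 4 libraries was the same on all 3 scales for each family.

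All globins together took 1.08% and 0.555% of the counts under the label Rif1_KO and 11.8% and 8.92% under the label WT. Other features of the libraries moved with the labels too, and their part in the globin values was not tested. The 3 gene models that cover ribosomal RNA took 3.87% and 7.15% of the counts under the label Rif1_KO and 15.8% and 17.6% under the label WT. These models overlap on chromosome 17, and reads over several genes were counted for each. The same fragments can therefore enter these shares, and the totals of counts, more than once. Genes with at least 10 counts numbered 15226 and 16211 under the label Rif1_KO and 13314 and 13566 under the label WT. Summed over the embryonic genes, the mean CPM under the label WT was 11.6-fold above replicate 1 labelled Rif1_KO and 643-fold above replicate 2. Summed over the adult genes the same ratios were 13.6 and 17.6. Adult and embryonic transcripts were therefore lower by similar factors in replicate 1, and by factors more than an order of magnitude apart in replicate 2. The ratio of alpha to beta counts was 3.85 and 3.58 under the label Rif1_KO and 2.65 and 3.45 under the label WT. It averaged 3.72 ± 0.186 under the label Rif1_KO and 3.05 ± 0.563 under the label WT (SD, n = 2 each), a difference of about the spread within the label WT. Per unshared window the order of the means turned round, to 4.54 under the label Rif1_KO and 4.84 under the label WT. Among the adult genes alone there were 10.3 and 26.6 beta counts per 100 alpha counts under the label Rif1_KO, and 5.82 and 11.6 under the label WT, so replicate 2 labelled Rif1_KO was again the one apart.

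**Figure D3:**
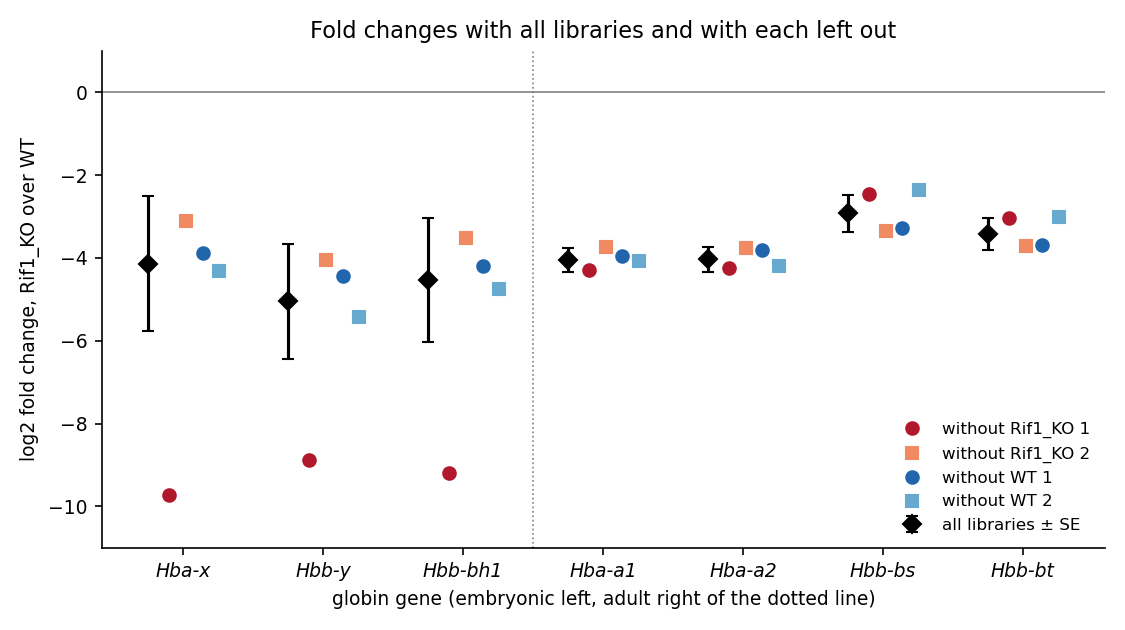
Fitted log2 fold change of each globin gene, Rif1_KO over WT, with all 4 libraries (diamonds, ± SE from edgeR) and with 1 library left out (coloured points). Leaving out Rif1_KO replicate 1 takes the embryonic genes to between -9.72 and -8.89, while the adult genes lie between -4.29 and -2.37 whichever library is left out.

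The fold changes between the labels are given as a description, because low globin values under the label Rif1_KO in these same libraries led to the choice of the genes. All 7 genes had both libraries labelled Rif1_KO below both labelled WT, where 18.4% of the 15466 tested genes did. The edgeR quasi-likelihood fit gave log2 fold changes, Rif1_KO over WT, of -4.05 (SE 0.30) for Hba-a1 and -4.04 (SE 0.31) for Hba-a2, the genes that passed its threshold among 0.0129% of tested genes that were called lower. The adult beta genes had -2.92 (SE 0.44) for Hbb-bs and -3.42 (SE 0.39) for Hbb-bt. The embryonic genes had -4.14 (SE 1.62) for Hba-x, -5.05 (SE 1.39) for Hbb-y and -4.53 (SE 1.49) for Hbb-bh1. The median of the 7 was -4.05, beside -0.11 for all tested genes. DESeq2 called 6 of the 7 lower, all but Hba-x, and 1.24% of all tested genes. The SE of the embryonic genes were several times those of the adult genes. Without Rif1_KO replicate 1 the log2 fold change of Hba-x was -9.72, that of Hbb-y -8.89 and that of Hbb-bh1 -9.20. Without Rif1_KO replicate 2 the values were -3.11, -4.06 and -3.51. Hba-a1 had -4.29 and -3.74 in these fits. A fit with 1 library left out takes the spread from the other label alone, so only its fold changes are given here.

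**Figure D4:**
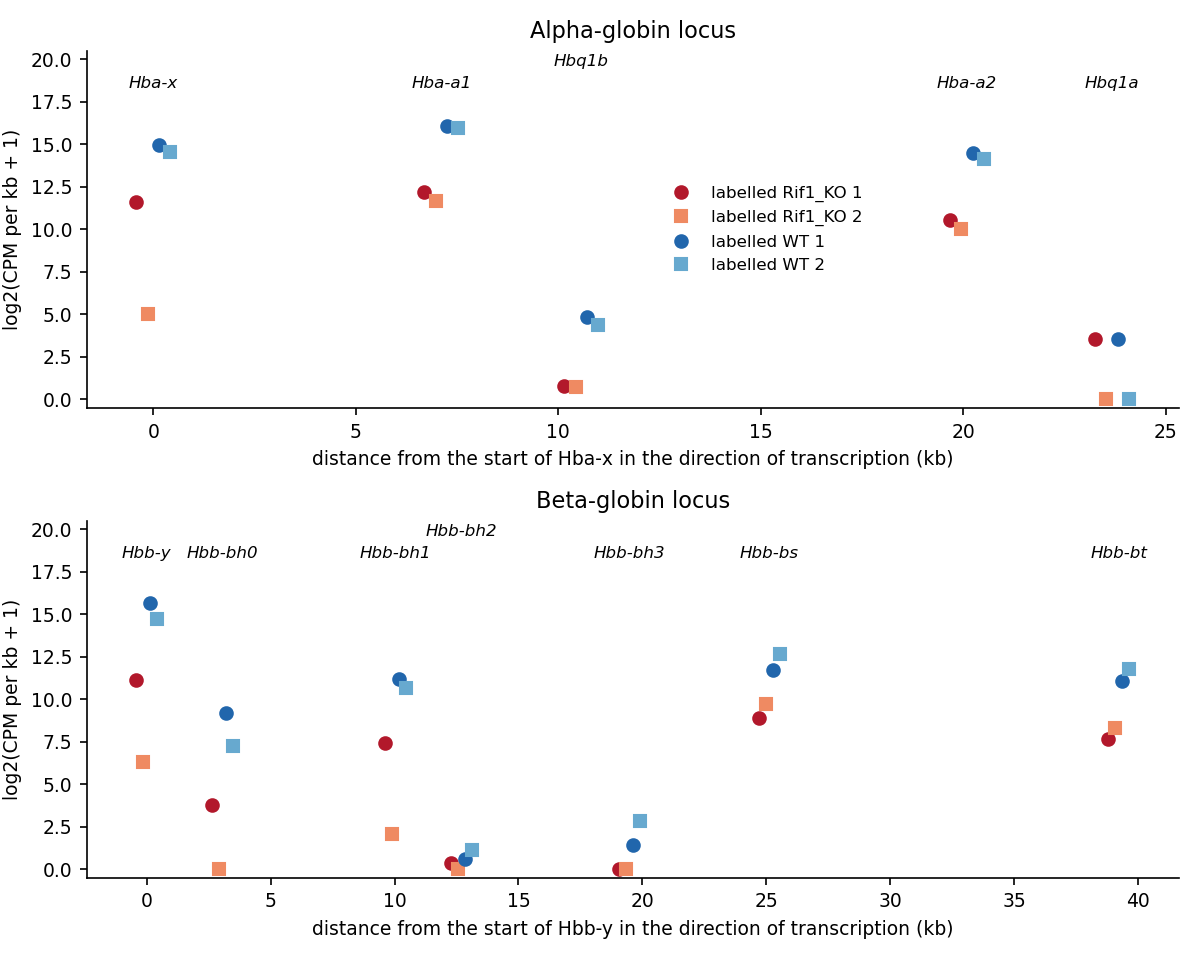
Levels along the alpha-globin (top) and beta-globin (bottom) clusters as log2(CPM per kilobase + 1), against the distance in kilobases from the start of the first gene, with 1 point per library and the points of a gene set side by side. At Hba-x, Hbb-y and Hbb-bh1 the library labelled Rif1_KO replicate 2 lies far below replicate 1, and at the 4 adult genes it does not.

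Other globin genes of the clusters were measured at low levels. Hbb-bh0, a pseudogene between Hbb-y and Hbb-bh1, had 22 and 0 counts under the label Rif1_KO and 831 and 179 under the label WT. Its level was 1.66 and 0 CPM under the label Rif1_KO and 76.6 and 19.2 CPM under the label WT, so it had no count in the library in which the embryonic genes around it were lowest. Hbq1b, the theta-like gene between the adult alpha genes, had 0.527 and 0.477 CPM under the label Rif1_KO and 20.1 and 14.5 CPM under the label WT. It had 7 and 9 counts under the label Rif1_KO, near the floor of 3 counts, so a split between those libraries could hardly be seen. Its near copy Hbq1a, behind Hba-a2, had 85 and 0 counts under the label Rif1_KO and 69 and 0 under the label WT. Hbb-bh2 and Hbb-bh3 had at most 15 counts in any library. Of 8 further globin genes found among 10 looked for, in and outside the clusters, 4 were tested, with 0 called by edgeR, 2 lower at an unadjusted p under 0.05 (3.05% of all tested genes were) and 2 lower by DESeq2, Hbb-bh0 and Hbq1b. Myoglobin (Mb), which stores oxygen in muscle, and neuroglobin (Ngb) had at most 8 counts. Cygb, the globin of fibroblast-like cells, had 2.19 and 5.40 CPM under the label Rif1_KO and 7.37 and 1.505 CPM under the label WT, which overlap.

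Neighbours within 50 kb that are not globins did not follow them. Nprl3, whose introns hold the enhancers of the alpha cluster, had 14.4 and 40.0 CPM under the label Rif1_KO and 9.86 and 26.7 CPM under the label WT. Mpg, which encodes a DNA repair glycosylase, had 8.29 and 31.1 CPM under the label Rif1_KO and 1.57 and 28.6 CPM under the label WT. Their values overlap between the labels. Nprl3 and Mpg overlap on opposite strands and no strand option was set, so their shared reads cannot be told apart. The olfactory receptor genes beside the beta cluster had at most 7 counts in any library, and the pseudogene Dnajc19-ps had 7.69 and 6.62 CPM under the label Rif1_KO and 7.28 and 8.92 CPM under the label WT.

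Of 20 regulators of globin genes and partners of the globin chains, 19 were matched and tested. edgeR called 0 of them, with 3 lower and 1 higher at an unadjusted p under 0.05, where 3.05% and 5.35% of all tested genes were. DESeq2 called Alas2 and Nfe2 lower and Sox6 higher, where it called 1.24% of tested genes lower and 2.13% higher. Fitted values were below 0 for 15 of the 19, with a median of -0.71 beside -0.11 for all tested genes. Alas2, the first enzyme of haem synthesis in red cells, had 12.9 and 20.7 CPM under the label Rif1_KO and 263 and 246 CPM under the label WT (edgeR adjusted p = 0.256). Fech, which puts the iron into the haem ring, had 10.2 and 46.0 CPM under the label Rif1_KO and 306 and 129 CPM under the label WT. Neither enzyme's groups overlap. Of the 19 genes, 7 were lower and 2 higher in both libraries labelled Rif1_KO than in both labelled WT, where 18.4% and 21.0% of all tested genes were.

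Several of the transcription factors in the list were uneven between replicates. Klf1, the activator of adult beta-globin, had 64 and 0 counts under the label Rif1_KO and 272 and 264 under the label WT, or 4.82 and 0 CPM for Rif1_KO against 25.1 and 28.4 CPM for WT. Bcl11a, a repressor of embryonic beta-like genes, had 0.980 and 0.212 CPM under the label Rif1_KO and 21.9 and 1.18 CPM under the label WT. Sox6, another repressor of Hbb-y that is also made in many cells outside the blood, had 19.6 and 12.6 CPM under the label Rif1_KO and 1.11 and 2.04 CPM under the label WT (edgeR adjusted p = 0.587). Nfe2, the erythroid factor that acts through the beta-globin control region, had 0.678 and 2.28 CPM under the label Rif1_KO and 1.01 and 94.1 CPM under the label WT. Its high mean under the label WT comes from WT replicate 2 alone. Gata1, the master regulator of red cells, had 1.58 and 3.34 CPM under the label Rif1_KO and 0.369 and 6.13 CPM under the label WT, which overlap.

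Set against the erythroid markers, globin transcripts no longer separated the labels. There were 167 and 103 globin counts per count of the 12 markers under the label Rif1_KO and 256 and 112 under the label WT, which overlap. For the adult genes alone the ratio was 90.5 and 101 under the label Rif1_KO and 138 and 71.7 under the label WT. For the embryonic genes it was 76.1 and 1.98 under the label Rif1_KO and 118 and 40.7 under the label WT. Against Alas2 by itself, Hba-a1 had 300.5 and 125 counts per count under the label Rif1_KO and 209 and 212 under the label WT. Hba-x had 231 and 1.44 counts per Alas2 count under the label Rif1_KO and 114 and 93.3 under the label WT. The marker sum moved between the labels with the globins, and its part in their difference was not tested. In the embryonic genes, replicate 2 labelled Rif1_KO remained far below replicate 1 when set against the markers.

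The pattern over the 4 libraries separated the genes by stage, mostly through the library labelled Rif1_KO replicate 2. The mean CPM under the label WT was 11.6-fold above replicate 1 labelled Rif1_KO for the embryonic genes and 13.6-fold for the adult genes. Above replicate 2 it was 643-fold and 17.6-fold. No distance was taken without that library. Likeness was measured as the Euclidean distance between centred log2(CPM + 1) values. It was 0.511 for Hbb-y with Hbb-bh1, 1.08 for Hba-x with Hbb-bh1 and 1.31 for Hba-x with Hbb-y, although Hba-x lies on another chromosome. Among the adult genes it was 0.200 for Hba-a1 with Hba-a2, 0.542 for Hbb-bs with Hbb-bt and at most 1.75 for any pair. Between an embryonic and an adult gene it was 3.82 to 6.41. Of 5328 other genes with a mean of at least 20 CPM, the 5 nearest to Hba-a1 were Gm6969, Supt7l, Alas2, Crebrf and Rpsa-ps10, at 0.773 to 1.01. Nearest to Hba-x were Epb42, which encodes a protein of the red cell membrane, Car2, the red cell carbonic anhydrase, Hbb-bh0, Tango6 and AW209491, at 3.43 to 4.35. Epb42 had 7.53 and 0.0530 CPM under the label Rif1_KO and 52.0 and 51.3 CPM under the label WT. None of these came as near to Hba-x as the other embryonic globins did. The 1 added to each CPM compresses values near 0, so distances of low genes such as Epb42 depend on level as well as pattern.

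In sums of markers of other cells the libraries labelled Rif1_KO lay much closer together than in the embryonic globins. Of 6 leukocyte markers 1 was lower and 1 higher in both of them than under the label WT, and the sum was 5.80 and 3.34 CPM under the label Rif1_KO and 2.21 and 18.8 CPM under the label WT. The sum of 5 endothelial markers was 37.1 and 93.2 CPM under the label Rif1_KO and 138 and 77.1 CPM under the label WT. That of 9 supporting and stromal markers was 1360 and 1120 CPM under the label Rif1_KO and 668 and 480.3 CPM under the label WT, with 5 of the 9 higher in both libraries labelled Rif1_KO, where 21.0% of tested genes were. The sums hide single markers that were less even between the libraries labelled Rif1_KO. There Fcer1g had 50 and 1 counts and Pecam1 had 4.75 and 36.4 CPM, while others were close, such as Kdr with 16.5 and 18.2 CPM. No marker in these lists was at 0 in all libraries. Their part in the globin values was not tested.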

How the data were processed

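RNA from 4 libraries of sorted cells was analysed from 1 table of raw counts per gene. The build mm10 and the tools HISAT2, SAMtools, featureCounts, FastQC and Trim Galore are named, per the submitters' processing notes. Per the file headers, featureCounts 1.6.2 counted fragments on GENCODE M17 at a mapping quality of at least 30, with no strand option, with multi-mapping reads admitted and with reads over several genes counted for each. The deposited counts were not normalized. All columns were used.

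Symbols came from Ensembl identifiers (95 of 53715 had none). Genes were filtered with filterByExpr (minimum count 10), which left 15466, and tested with edgeR 4.0.16 (quasi-likelihood, robust, TMM, no covariate) in R 4.3.3, with Benjamini-Hochberg adjustment at 0.05. SE is the log2 fold change over the square root of F. The common biological variation (BCV) was 0.842. Over all genes the median log2 fold change was -0.11 (TMM), -0.19 (RLE) or 0.16 (upper quartile). DESeq2 1.42.0 and limma-voom (limma 3.58.1) were alternatives. Replicates of a label differed beyond sampling noise, with a chi-square of 43.6 (Rif1_KO) and 50.8 (WT) per degree of freedom. The edgeR step was tested on simulated data. Promoters are from RefSeq (GRCm38.p6), and mRNA windows from GENCODE M21, whose coordinates of the 7 genes equal those of the table.

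Members and lists were chosen with earlier results of these data known. The text names the 7 genes, other globin genes, neighbours within 50 kb, genes of a list of regulators and chain partners, marker sums, and the 5 genes nearest to Hba-a1 and to Hba-x. Epb42 is given with values after they were seen.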

Additional observations from a re-analysis of the deposited data

How the results depend on the processing

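The count of genes called between the labels moved with the setting, from 2 to 0 with upper-quartile factors and with a minimum count of 50 in edgeR (at an unadjusted p under 0.05, 1055 higher and 295 lower, and 575 higher and 367 lower), to 54 without a filter on low counts and to 521 with DESeq2. With 1 library left out it was 5 to 1345, namely 8 and 5 without Rif1_KO replicates 1 and 2 and 1345 and 890 without WT replicates 1 and 2. Such fits take the spread from the other label alone. All 7 globins stayed below 0 in all 12 alternatives. In the alternatives that keep all 4 libraries, Hba-a1 and Hba-a2 were called except with upper-quartile factors and with a minimum count of 50. Their edgeR adjusted p was 0.0798 with upper-quartile factors and 0.149 with a minimum count of 50. Their calls with 1 library left out are not given, because those fits take the spread from 1 label. The same-numbered libraries did not deviate together over all genes (correlation -0.025 over 15466 genes), and the main fit did not pair them. Whether same-numbered libraries share an origin was not tested. With a replicate block 7 genes were called, among them Hbb-bs and Hbb-bt. The globin share under the label WT was 15.6% without mitochondrial and rRNA-region genes. Per kilobase the embryonic share of alpha under the label WT was 24.5%, and the ratio of alpha to beta was 3.23 under the label Rif1_KO and 2.44 under the label WT. Per unshared window, a scale added after the data were seen, the embryonic share under the label WT was 10.4% for alpha and 63.3% for beta, and the ratio of alpha to beta 4.54 under the label Rif1_KO and 4.84 under the label WT. The cause of these moves was not tested, beyond the lengths and windows that build the scales. At depths of 11724630 counts or more, 3 counts are 0.256 CPM or less before scaling.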
